A study of Mus musculus with 12 samples.

Results

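Male primordial germ cell-like cells (PGCLCs) at day 6 of culture were compared with primordial germ cells (PGCs) of embryos at embryonic day 9.5 (E9.5) over the whole mouse expression array. The 4 arrays compared, of 12 in the series, were chosen by their descriptions: 2 carry the prefix PGCLCd6M and 2 the prefix PGC9. In each pair 1 array bears the code EA0831 and the other the code EA0842, so the code could be entered as a block. The labels do not say what the code stands for. In both groups it coincides with the replicate number, and every pair of values below is given in the order EA0831, EA0842.

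The series asked how PGCLCs compare with embryonic PGCs at several stages. PGCLCs came from embryonic stem (ES) cells, here male and C57BL/6, that carry the transgenic reporters Blimp1-mVenus and stella-ECFP. The E9.5 PGCs carried stella-EGFP, came from C57BL/6 reporter males mated to wild-type BDF1 females, and are of unknown sex. Both were sorted by reporter fluorescence, and their cDNA was amplified by PCR with 12 initial cycles from 5 ng of total RNA, the yield of about 500 cells. No genetic manipulation other than the reporters is labelled in either group. Culture against embryo, strain and reporter differ between the groups and cannot be told apart here, and a difference in sex cannot be assessed from the labels. Sorting on stella (Dppa3) reporters limits what the level of Dppa3 can show, and the same holds for Blimp1 (Prdm1) in the cultured cells.

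PGCs are the embryonic founders of eggs and sperm. They are set aside from the epiblast in response to BMP signals under the control of Prdm1, Prdm14 and Tfap2c, regain a pluripotency network, and migrate through the hindgut toward the gonads while DNA methylation is erased. PGCLCs pass through an epiblast-like state in culture and are then grown with cytokines. PGCs in the embryo are surrounded by posterior mesoderm, gut and blood.

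Values are log2 signal after quantile normalization. Array medians before it were 4.73 to 4.87, and the median of all values afterwards was 4.81, which serves as a rough level for dim signal. A gene was called where limma's adjusted p was under 0.05 over the 25610 probe sets tested, and differences are d6 male minus E9.5 with their standard error (SE). All 10 tested germ cell defining markers (among them Dppa3, Prdm1, Tfap2c, Kit and Pou5f1) lay between 10.4 and 13.4 on all 4 arrays, and none was called, with 2 at an unadjusted p under 0.05. The labels call the arrays biological replicates. With 2 arrays a group, their number limits the precision.

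Of the 25610 probe sets, 1801 (7.03%) were called. Of 13459 genes tested, 1168 (8.68%) were called, 659 (4.9%) higher and 509 (3.78%) lower in d6 male PGCLCs. At least a 4-fold difference was reached by 333 of them, 166 higher and 167 lower. The shares over all genes, 4.9% higher and 3.78% lower, are the background for the list counts below. The groups did not overlap for any of the 1168, against 43.8% of all genes tested. The call was kept with each of the 4 arrays left out in turn by 405 genes (3.01% of those tested), 221 higher and 184 lower. The spread was estimated over all 12 arrays; with only the 4 arrays in the fit, 34 genes were called. A gene named below as higher or lower kept its call without each array unless a range of adjusted p is given, which is then the range over the 4 fits that each leave out 1 array.

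With the code as a replicate block, 1676 genes (12.5%) were called, 931 (6.92%) higher and 745 (5.54%) lower, and 1163 of the 1168 were among them. Between EA0842 and EA0831, 1822 of the 25610 probe sets (7.11%) differed, and 1243 of them were lower on EA0842. Of the 1822, 44 were also called between the groups. The count of 1822 fell to 0 with no filter and to 0 with only the 4 arrays in the fit. Code and replicate number cannot be told apart here. All 1168 called genes had the same sign within both codes, which follows from their groups not overlapping; of all genes, 71.5% had it. Across genes, which are not independent replicates, the differences within EA0831 and within EA0842 had a Pearson correlation of 0.75.

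**Figure D1:**
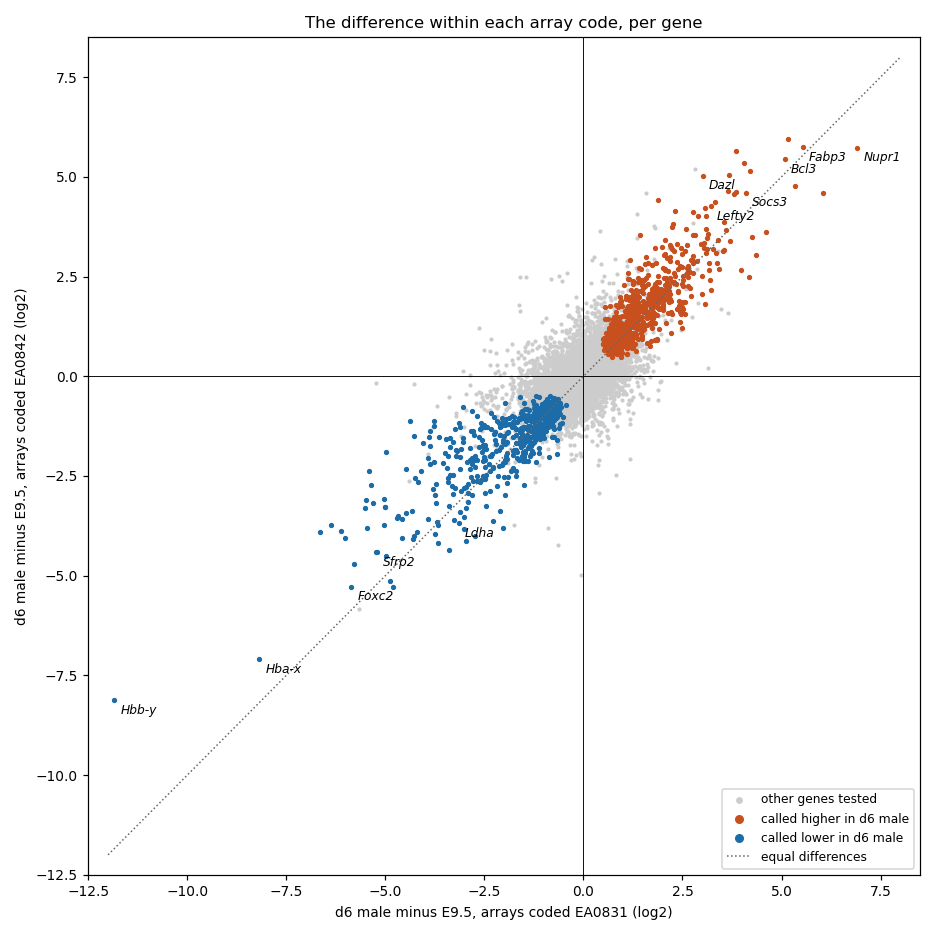
Each point is 1 of 13459 genes: the horizontal axis gives d6 male minus E9.5 on the arrays coded EA0831 and the vertical axis the same on EA0842, both in log2. Orange points were called higher and blue points lower in d6 male, and all 1168 lie in the quadrants where both codes have the same sign.

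The genes that were lower by most were embryonic globins and regulators of mesoderm and body patterning. Hbb-y, the embryonic beta-like globin of primitive red cells, had values of 0.69 and 3.30 in d6 male and 12.54 and 11.42 in E9.5, a difference of -9.98 (SE 0.75, limma adjusted p = 0.000400). Hba-x, the embryonic alpha-like globin, read 4.55 and 4.64 against 12.73 and 11.73 (-7.64, SE 0.40, adjusted p = 8.42e-05). Both globins were among the brightest signals of the E9.5 arrays and dim on the d6 male arrays. Next came Foxc2, a forkhead factor of mesenchyme (-5.57, SE 0.77), Nr2f1, the nuclear receptor COUP-TFI (-5.28, SE 0.55), and Zfp503, a zinc finger factor (-5.24, SE 0.66). Nkx1-2, a homeobox gene of the caudal embryo, was at 4.02 and 3.55 against 8.83 and 8.84 (-5.04, SE 0.29, adjusted p = 0.000130). Cxcl12, the chemokine that guides migrating PGCs through their receptor Cxcr4, was at 3.67 and 2.64 against 8.56 and 7.78 (-5.01, SE 0.51, adjusted p = 0.00109). In these genes the E9.5 arrays were high and the d6 male arrays mostly below 4.81, so the sizes are imprecise. When dim values were raised to 4.81, Cxcl12 still differed by -3.35 and Foxc2 by -2.39. In the female day 3 PGCLCs of the series, coded EA1013, Cxcl12 was at 7.26 and 7.95 and Nkx1-2 at 8.52 and 8.52. Hbb-y was at 3.18 and 2.86 there, and Foxc2 at 3.24 and 3.36.

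The genes that were higher by most included regulators of stress and of cytokine signalling. Nupr1, a stress-induced chromatin protein, read 7.64 and 7.36 in d6 male and 0.72 and 1.63 in E9.5 (6.32, SE 0.74, adjusted p = 0.00205; 2.69 with the dim values raised to 4.81). Fabp3, a fatty acid-binding protein, read 10.99 and 10.28 against 5.46 and 4.54, a 49.8-fold difference (5.64, SE 0.34, adjusted p = 0.000182). Calcoco2, an autophagy receptor, read 12.11 and 11.80 against 8.25 and 7.19 (4.24, SE 0.33, adjusted p = 0.000400). The E9.5 values of Nupr1 were dim and those of Calcoco2 were not. Also in this set were Pramel6, a PRAME family member (5.32, SE 0.47), Cda, cytidine deaminase (5.05, SE 0.39), Tmem63a, an ion channel protein (4.66, SE 0.30), and Neat1, the noncoding RNA of paraspeckles (4.36, SE 0.33). Mymx, a micropeptide of myoblast fusion, was higher in d6 male (5.55, SE 0.75, adjusted p = 0.00396). With dim values raised to 4.81 the differences were 1.40 for Pramel6, 2.61 for Cda and 2.80 for Mymx.

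**Figure D2:**
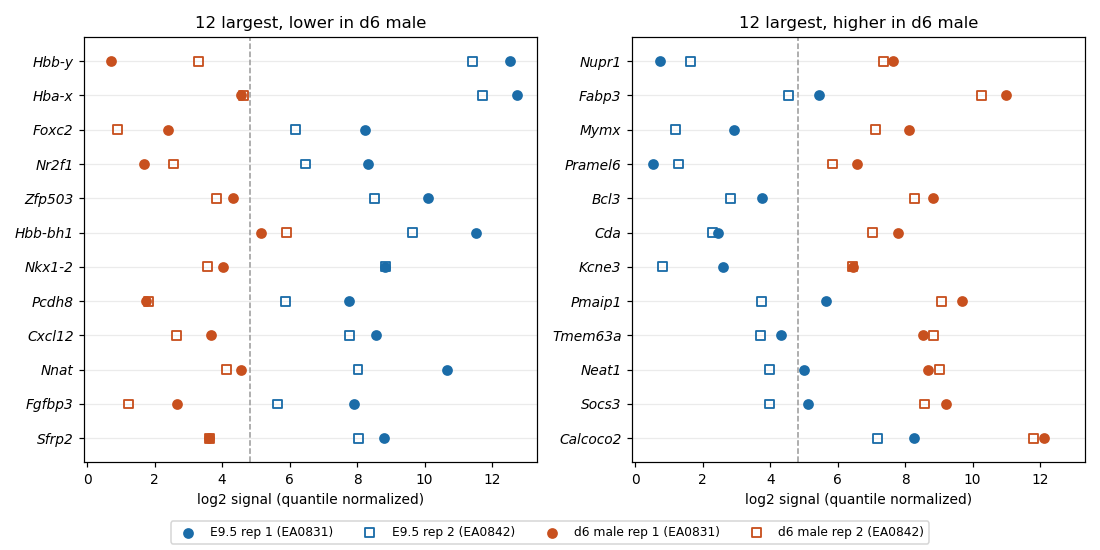
Log2 signal on the 4 arrays for the 12 genes with the largest difference in each direction; blue marks E9.5, orange d6 male, filled circles EA0831 and open squares EA0842, and the dashed line is 4.81. The 24 genes were picked from called genes whose groups do not overlap, so the separation of the arrays follows from the choice. One group lies near or under the dashed line in most.

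Of the 15 tested genes of the LIF and STAT3 response list, 6 were higher and none lower (median difference 0.54, against 0.00 over all genes tested), and all 6 kept their call without each array. LIF is a cytokine that sustains naive pluripotent cells and acts through the receptor subunits Lifr and Il6st, the kinase Jak1 and the transcription factor Stat3. Of the ligand and receptors, Lif itself was at 6.30 and 5.93 against 4.69 and 4.36 (1.59, SE 0.24, adjusted p = 0.00659), while Il6st differed by 0.29 (adjusted p = 0.347). Stat3 was at 9.26 and 9.28 against 7.89 and 7.50 (1.57, SE 0.19, adjusted p = 0.00214). Among its targets, Socs3, the feedback inhibitor of the pathway, was at 9.21 and 8.57 against 5.11 and 3.97, (4.35, SE 0.46, adjusted p = 0.00141; 3.93 with dim values raised to 4.81). Bcl3, an IkappaB family cofactor, was at 8.83 and 8.27 against 3.75 and 2.83 (5.26, SE 0.34, adjusted p = 0.000271). Both d6 male arrays were above both E9.5 arrays by over 3 log2 units in these targets. Junb, an AP-1 factor, was 7.02-fold higher (2.81, SE 0.32) and Tfcp2l1, a naive pluripotency factor downstream of STAT3, was higher by 1.43 (SE 0.17).

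The STAT recognition sequence is commonly written TTCNNNGAA. In the 250 bases before the start of each gene in the RefSeq promoter table (GRCm38.p6), searched on both strands, it occurred in 7.18% of 27025 promoters and in 5.73% of those of tested genes. Of the 6 called genes of the list 1 held it, Socs3, at 154 bases before its start. Its promoter is shown because it is the called member with the motif (chr11:117969367-117969616, minus strand, written 5′ to 3′, motif in capitals). A match is a run of letters and not evidence of binding.
Socs3: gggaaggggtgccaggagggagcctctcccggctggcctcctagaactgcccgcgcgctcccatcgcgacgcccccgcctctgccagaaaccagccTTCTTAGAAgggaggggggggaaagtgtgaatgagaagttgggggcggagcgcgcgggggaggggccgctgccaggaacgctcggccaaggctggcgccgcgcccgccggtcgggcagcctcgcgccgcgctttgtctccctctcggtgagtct

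Called genes of 3 stress-related lists were all higher in d6 male, though most members were not called. In the list of p53 targets and apoptosis, 10 of 24 tested genes were higher and none lower (median 0.72). Ccng1, a cyclin induced by p53, was at 10.25 and 10.63 against 8.21 and 8.18 (2.24, SE 0.17, adjusted p = 0.000396). Phlda3, a p53-induced inhibitor of AKT, was at 10.05 ± 0.08 (SD, n = 2) against 7.71 and 6.96 (2.72, SE 0.24, adjusted p = 0.000698). Pmaip1, the BH3-only protein NOXA, was at 9.70 and 9.08 against 5.66 and 3.73 (4.69, SE 0.52, adjusted p = 0.00165). The d6 male arrays were the higher in all, and the E9.5 arrays of Pmaip1 differed from each other by nearly 2 log2 units. Perp, an epithelial p53 target, was higher by 1.27 (SE 0.17), and Trp53inp1 by 1.77 (SE 0.25). These 5 kept their call without each array. The other 5 were Btg2 (1.56; adjusted p 0.00571 to 0.0528), Aen (0.99; 0.0553 to 0.0809), Tnfrsf10b (1.70; 0.0473 to 0.102), Bbc3 (0.93; 0.0248 to 0.103) and Sesn2 (1.84; 0.063 to 0.159), whose call was lost without 1 or more arrays. The count was 7 without either d6 male array, 8 without the E9.5 array coded EA0831 and 6 without the one coded EA0842. Cdkn1a, the p53-induced cell cycle inhibitor, was at 9.67 and 8.47 against 7.95 and 7.02 and did not pass (1.59, adjusted p = 0.0759), though it did with the code block (adjusted p = 0.0123). The other of its 2 tested probe sets was called higher.

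In the list of the integrated stress response and amino acid supply, 6 of 26 were higher and none lower (median 0.45). Besides Nupr1 these included Trib3, a pseudokinase induced by Atf4 (2.01, SE 0.26), and Chac1, an enzyme that degrades glutathione (2.43, SE 0.39). Cth (1.78), Slc3a2 (0.75) and Sesn2 lost their call with an array left out, with adjusted p up to 0.159. Of 23 immediate early genes, which respond within minutes to growth factors or to handling, 7 were higher and none lower (median 0.38). Junb and Dusp1, a phosphatase of MAP kinases (0.88, SE 0.14), kept their call; the other 5, Btg2, Fos, Zfp36, Nr4a1 and Fosb, did not, and adjusted p reached 0.163. Btg2 and Sesn2 each stand in 2 of these lists. Time between dissociation and lysis is not labelled, and its part in these values was not tested.

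Of 33 tested genes of glycolysis and hypoxia, 8 were lower and 3 higher (median -0.28). Ldha, lactate dehydrogenase A, was at 9.56 and 9.08 in d6 male and 12.71 and 12.77 in E9.5, a 10.7-fold difference (-3.41, SE 0.29, adjusted p = 0.000625). Pfkl, a phosphofructokinase, was at 8.19 and 7.22 against 11.15 and 10.52 (-3.13, SE 0.33, adjusted p = 0.00120). Tpi1, triose phosphate isomerase, was at 10.69 and 10.69 against 12.04 and 11.94 (-1.30, SE 0.22, adjusted p = 0.00909). In each the E9.5 arrays were the higher, and the 2 Ldha values of E9.5 nearly coincided. Car12, a carbonic anhydrase induced by hypoxia, was lower by a difference of -1.87 (SE 0.21). Ankrd37, Slc16a3, Slc2a1 and P4ha1 were lower too, but lost their call without 1 or more arrays (adjusted p up to 0.162). The 3 that were higher, Adm, Hk1 and Pfkp, also lost theirs (up to 0.165), so that isoforms of one enzyme, Pfkl and Pfkp, differed in opposite directions. The count of lower genes was 7 and 4 without the d6 male arrays coded EA0831 and EA0842, and 5 and 9 without the corresponding E9.5 arrays.

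The female day 6 PGCLCs of the series, whose 2 arrays carry another code, EA1013, stood elsewhere for several of these genes. Their Ldha was at 11.37 and 12.04 and their Pfkl at 10.27 and 10.50, between the 2 groups compared. Tpi1 was at 11.34 and 11.95 there. By contrast their Socs3 (8.99 and 9.35) and Bcl3 (8.59 and 9.02) were near the d6 male values. Sex and code cannot be told apart between the 2 kinds of PGCLC, and the difference between them was not tested here.

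The hypoxia-inducible factors recognise the letters ACGTG, which occurred on either strand in 16.6% of 27025 promoter windows and in 21.4% of those of tested genes. They occurred in 16 of the 31 tested list members with a window and in 5 of the 11 called (Slc2a1, Ldha, Ankrd37, P4ha1 and Slc16a3). The Ldha promoter is shown because it had the lowest adjusted p among these (chr7:46845554-46845803, plus strand). It held 5 matches over both strands from 145 to 34 bases before the start, in capitals; CACGTG reads the same on both strands and counts once for each.
Ldha: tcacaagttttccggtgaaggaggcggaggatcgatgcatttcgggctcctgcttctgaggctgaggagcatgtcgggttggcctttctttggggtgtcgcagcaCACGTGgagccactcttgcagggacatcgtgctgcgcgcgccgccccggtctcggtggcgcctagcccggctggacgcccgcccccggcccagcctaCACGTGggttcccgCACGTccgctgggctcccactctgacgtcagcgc

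**Figure D3:**
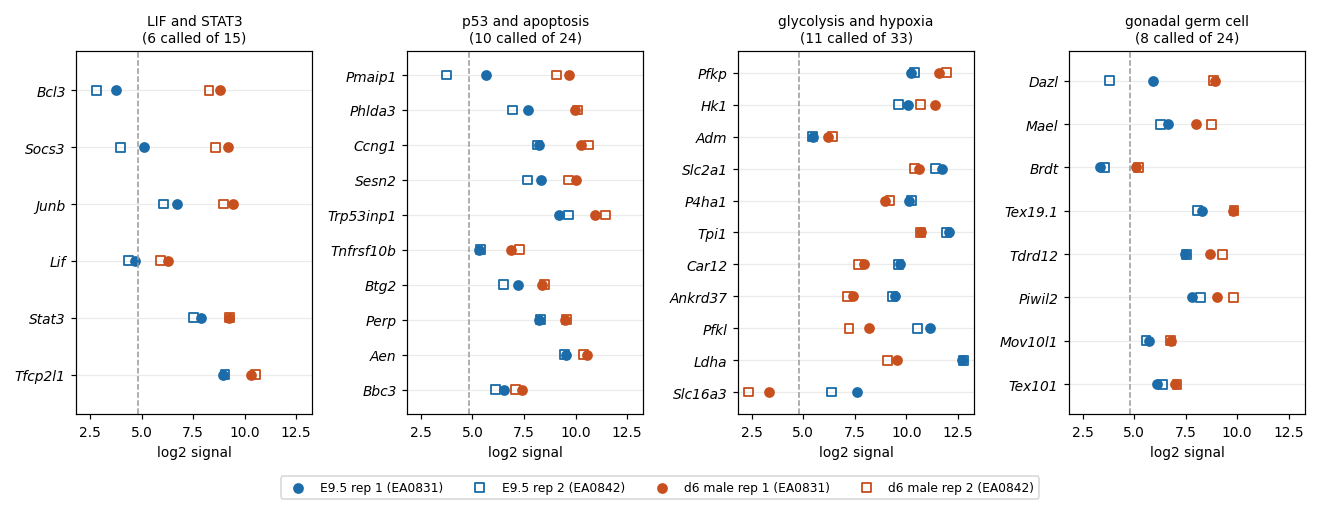
Log2 signal on the 4 arrays for the called genes of 4 lists, with colours and symbols as in the plot of the largest differences. All called genes of the LIF and STAT3, p53 and gonadal germ cell lists lie higher in d6 male; 8 of the 11 glycolysis and hypoxia genes lie lower.

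Of 24 tested genes of the gonadal germ cell list, which PGCs switch on as they settle in the gonad, 8 were higher and none lower (median 0.68). Dazl, an RNA-binding protein that licenses germ cells for sexual differentiation, was at 8.92 and 8.84 against 5.92 and 3.81 (4.02, SE 0.62, adjusted p = 0.00663). Its E9.5 arrays differed by about 2 log2 units and both lay below the d6 male arrays. Tex19.1, a germ cell gene silenced by promoter methylation in somatic cells, was at 9.78 and 9.84 against 8.28 and 8.06 (1.64, SE 0.24, adjusted p = 0.00542). Brdt, a testis bromodomain protein, was at 5.10 and 5.20 against 3.35 and 3.59 (1.68, SE 0.26, adjusted p = 0.00676), with the E9.5 values under 4.81, and 0.34 and not called with dim values raised to that level (adjusted p = 0.200). Mael, a piRNA pathway gene, was higher by 1.92 (adjusted p 0.0201 to 0.0681), and Tdrd12, Piwil2, Mov10l1 and Tex101 were higher but lost their call without 1 or more arrays, with adjusted p up to 0.216. The count of higher genes was 5, 3, 4 and 3 without the d6 male arrays EA0831 and EA0842 and the E9.5 arrays EA0831 and EA0842. Ddx4, the germ cell helicase, was at 9.93 and 10.04 against 9.14 and 8.90 and did not pass (0.96, adjusted p = 0.0983).

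CACGTG, an E-box that binds several basic helix-loop-helix factors and holds a CpG, occurred in 6.05% of all promoter windows, 8.28% of those of tested genes and 9 of the 22 list members with one. Of 7 called members with a window 3 held it: Mael, Brdt and Mov10l1. Brdt had the lowest adjusted p of them and is shown (chr5:107330944-107331193, plus strand; match in capitals, 78 bases before the start).
Brdt: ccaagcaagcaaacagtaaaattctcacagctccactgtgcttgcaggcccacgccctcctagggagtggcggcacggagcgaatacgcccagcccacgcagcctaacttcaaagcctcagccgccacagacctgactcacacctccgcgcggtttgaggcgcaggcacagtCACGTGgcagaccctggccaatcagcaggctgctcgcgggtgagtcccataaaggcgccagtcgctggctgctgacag

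Of 28 tested meiosis genes, 2 were higher and 1 lower (median 0.05), near the shares over all genes tested (4.9% and 3.78%). Spo11, the nuclease that makes meiotic breaks, was at 5.55 and 5.44 against 7.16 and 7.15, lower in d6 male (-1.66, SE 0.19, adjusted p = 0.00191). Sohlh2 and Tex15 were higher in the full fit, with adjusted p of 0.0305 to 0.133 and 0.0394 to 0.157. Sycp3, of the synaptonemal complex, differed by 0.48 (adjusted p = 0.368) and Stra8, the meiotic gatekeeper, by 0.62 (adjusted p = 0.432), with dim values on all 4 arrays.

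The core germ cell factors did not differ detectably. Prdm1 was at 10.60 and 10.69 against 10.42 and 10.84 (0.02, SE 0.27, adjusted p = 0.989), and Dppa3 at 12.98 and 13.03 against 13.02 and 13.18 (-0.09, SE 0.14, adjusted p = 0.816). Prdm14 differed by 0.17, Tfap2c by -0.20, Kit by -0.23 and Pou5f1 by 0.07, all with adjusted p above 0.5. In the specification list, 2 of 17 genes were higher and 1 lower (median -0.08), and all 3 lost their call with an array left out. They were Rhox5 (0.97), Dppa5a (0.71) and Lin28a, an inhibitor of let-7 processing (-2.0), with adjusted p up to 0.154. Nanos3 was not tested here.

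Pluripotency genes were higher more often than lower, 6 against 2 of 26 (median 0.40). Dppa2, a chromatin protein of pluripotent cells, was at 11.30 and 11.39 against 8.67 and 8.69, 6.33-fold higher (2.66, SE 0.25, adjusted p = 0.000836). Its partner Dppa4 was at 12.45 and 12.62 against 11.11 and 10.85 (1.55, SE 0.17, adjusted p = 0.00174). Eras, a Ras-like protein of ES cells, was higher by 1.59 (SE 0.24; 0.67 with dim values raised). Zfp42, known as Rex1, was higher by 1.51 (adjusted p 0.00537 to 0.0658), as was Dppa5a, and Gdf3, a TGF-beta family ligand, was lower with Lin28a (-0.91; 0.0303 to 0.0716). Nanog differed by 0.48 (adjusted p = 0.691) and Sox2 by -0.36 (adjusted p = 0.221).

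Primed epiblast genes moved both ways, 4 higher and 4 lower of 19. The higher genes included the Nodal antagonists and the Nodal co-receptor. Lefty1 was at 10.62 and 10.82 against 7.49 and 7.36 (3.29, SE 0.24, adjusted p = 0.000396), and Lefty2 at 10.35 and 10.74 against 7.13 and 6.49, 13.3-fold (3.74, SE 0.29, adjusted p = 0.000400). Tdgf1, the co-receptor Cripto, was at 11.59 and 10.61 against 8.26 and 6.25 (3.85, SE 0.56, adjusted p = 0.00533). All 3 were high on both d6 male arrays, with no overlap. The lower ones included Sfrp2, a secreted WNT modulator, at 3.60 and 3.63 against 8.81 and 8.05 (-4.81, SE 0.23, adjusted p = 8.42e-05), Sox3, a factor of epiblast and neural cells (-3.02, SE 0.39), and Fgf5, the classic epiblast ligand (-1.57, SE 0.24). The remaining calls were Sall2, lower by -3.03, and Dnmt3l, higher by 2.92, and both lost their call without 1 or more arrays. With dim values raised to 4.81, Dnmt3l differed by 1.95 and was not called (limma adjusted p = 0.146).

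Surface and migration genes divided similarly, 2 higher and 4 lower of 21 (median -0.14). Icam1, an adhesion receptor for leukocytes, was at 7.62 and 7.71 against 4.51 and 3.69 (3.57, SE 0.30, adjusted p = 0.000567), and Cd9, a tetraspanin, was higher by 1.69 (SE 0.25). Cd24a, a surface sialoglycoprotein, was at 10.62 and 10.76 against 12.38 and 12.60 (-1.80, SE 0.15, adjusted p = 0.000508). Cdh2, N-cadherin, was lower (-2.10, SE 0.33), as was Fut4, a fucosyltransferase (-1.54, SE 0.24). With dim values raised to 4.81, Fut4 differed by -0.24 and was not called (adjusted p = 0.512). Prom1 was lower by -1.99 (adjusted p 0.0262 to 0.0583).

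Of 30 tested genes of posterior mesoderm and the Hox clusters, 11 were lower and none higher (median -1.04). Hoxb1 was at 2.53 and 2.63 against 7.23 and 6.18 (-4.12, SE 0.37, adjusted p = 0.000715), Hoxb9 at 3.74 and 3.56 against 8.77 and 7.29 (-4.38, SE 0.54, adjusted p = 0.00255) and Hoxd9 at 3.83 and 4.45 against 7.19 and 6.92 (-2.91, SE 0.28, adjusted p = 0.000836). The d6 male values of these patterning factors were dim and those of E9.5 were not. Cdx2, the caudal factor upstream of Hox genes, was lower (-2.30, SE 0.32), as was Msx1, a homeobox target of BMP signals (-1.51, SE 0.19). Hoxc8 and Hoxd8 also kept their call, though Hoxc8 was not called with dim values raised to 4.81 (-1.59, adjusted p = 0.130), and Hoxa9, Hoxc4, Hoxb2 and Hoxb6 did not (adjusted p up to 0.181). The count was 7 without each of the d6 male arrays or the E9.5 array coded EA0831, and 11 without the E9.5 array coded EA0842.

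Some markers of other cells of the embryo were also lower. Here too the E9.5 arrays alone could admit a marker to the test, which tilts counts and levels toward lower. The d6 male mean was below 4.81 for 4 erythroid, 7 mesenchyme and 4 neural markers, and the E9.5 mean for 0 in each list. Of 7 tested erythroid markers, 5 were lower (median -4.25), and their mean level was 3.86 and 4.44 on the d6 male arrays against 9.17 and 7.88 on the E9.5 arrays. Of 16 mesenchyme markers, 10 were lower and none higher (median -2.26), with mean levels of 4.54 and 4.63 against 7.53 and 6.30. Of 11 neural markers 3 were lower, with mean levels of 5.56 and 5.15 against 7.06 and 5.72. With dim values raised to 4.81 the neural means were 6.08 and 5.92 against 7.06 and 5.72. The d6 male array was then lower only within EA0831. With that floor Sox1 differed by -0.74 and was not called (limma adjusted p = 0.123), while Elavl4 was (-1.52, adjusted p = 0.0279). The erythroid and mesenchyme means stayed lower within both codes. Of 17 gut and visceral endoderm markers 2 were lower (Cdx2 and Foxa1) and 1 higher (Apoe), and of 11 gonadal somatic markers 1 was lower (Lhx9). Of 12 macrophage markers none was called by limma (1 at an unadjusted p under 0.05), and of 14 endothelial markers 4 were higher. Foxa1, Apoe and Lhx9 lost their call without 1 or more arrays, with adjusted p up to 0.0507, 0.130 and 0.0767. No tested marker of these lists was listed at exactly 0. In bulk samples, fewer cells of a type and less RNA per cell cannot be told apart.

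The 2 E9.5 arrays were unequal in the same markers. The array coded EA0831 was above the one coded EA0842 in 7 of 7 erythroid genes (median 1.13), 14 of 16 mesenchyme genes (1.45), 10 of 11 neural genes (1.29) and 21 of 30 posterior and Hox genes (0.41), compared with 52.6% of all genes (0.03). For the germ cell defining markers it was above in 1 of 10 (-0.22). Of the d6 male arrays, EA0831 was above in 1 of 7 erythroid, 5 of 16 mesenchyme and 8 of 11 neural genes. It was above in 13 of 30 posterior and Hox genes and 4 of 10 germ cell markers, against 49.8% of all genes. Without the E9.5 array coded EA0831, the lower genes numbered 5 of 7 erythroid, 2 of 16 mesenchyme and 1 of 11 neural. Without the E9.5 array coded EA0842 they numbered 5, 10 and 3, without the d6 male array coded EA0831 4, 2 and 3, and without the d6 male array coded EA0842 5, 2 and 1. Foxc2, Meox2, a homeobox gene of somites (-4.20, SE 0.65), and Neurog2, a proneural factor (-3.75, SE 0.53), kept their call without each array. With dim values raised to 4.81, Meox2 differed by -0.90 (adjusted p = 0.260) and Neurog2 by -1.39 (adjusted p = 0.0854), and neither was called. Twist1 (-3.89; adjusted p 0.00574 to 0.0888) and Meox1 (-4.14; 0.0253 to 0.085) did not. The part of these markers in the Hox and mesoderm differences was not tested.

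**Figure D4:**
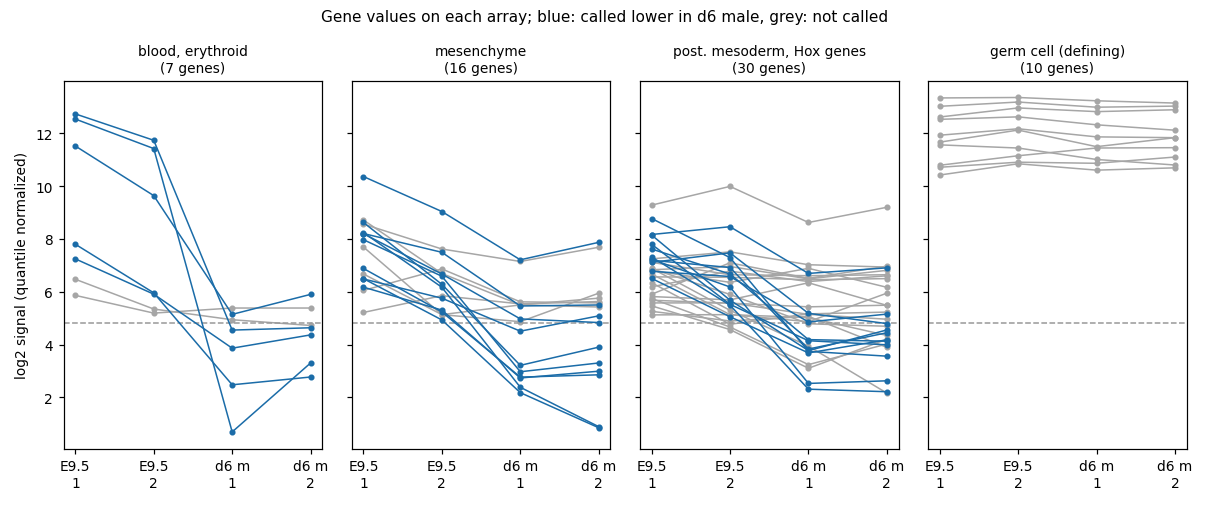
Log2 signal on the 4 arrays for the erythroid, mesenchyme, posterior mesoderm and Hox, and germ cell defining lists; each line is a gene, blue where it was called lower in d6 male. The first E9.5 array (EA0831) is above the second in 7 of 7 erythroid and 14 of 16 mesenchyme genes, and the germ cell markers stay between 10.4 and 13.4.

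Signalling targets were mixed. Of 16 BMP target genes, 3 were lower and 2 higher. The inhibitors of differentiation Id4, at 4.85 and 5.39 against 7.81 and 8.18 (-2.87, SE 0.27, adjusted p = 0.000836), and Id1, at 8.17 and 7.78 against 10.86 and 10.40 (-2.66, SE 0.29, adjusted p = 0.00158), were lower with Msx1. The ligand Bmp4 was higher, at 9.03 and 9.33 against 7.71 and 7.36 (1.65, SE 0.25, adjusted p = 0.00625), and the feedback inhibitor Smad7 was higher by 1.0 (adjusted p 0.109 to 0.139). The other 11 genes of the list were not called. Of 19 WNT genes, 2 were lower: Notum, which inactivates WNT ligands (-0.97, SE 0.15), and Wnt5a (-3.44; adjusted p 0.0251 to 0.0613). Of 18 FGF and ERK genes, 2 were lower: Spred1, an inhibitor of the pathway (-1.18, SE 0.14), and Etv4 (-0.77; 0.0373 to 0.169).

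Of 15 tested D cyclins and G1 kinase inhibitors 1 was called, Cdkn2b, higher by 1.03 (SE 0.23, limma adjusted p = 0.0326). Cdkn2b lost its call without 1 or more arrays. With the code block, 2 genes of that list were higher and 1 lower. None of 43 S phase and mitosis genes (median 0.00) and none of 43 nuclear genes of oxidative phosphorylation (median -0.07) was called by limma; 3 and 0 had an unadjusted p under 0.05. With the code block, 1 of the S phase and mitosis genes was called. None of 21 histone and arginine methyltransferases and related chromatin genes was called either, with 2 at an unadjusted p under 0.05 and 1 called with the code block. Among 15 DNA methylation genes only Dnmt3l, the cofactor of de novo methylation, was called, at 7.10 and 6.42 against 3.94 and 3.75 (2.92, SE 0.70, adjusted p = 0.0418; 0.102 to 0.162 with an array left out). With the code block Gadd45b, a gene linked to demethylation, was called too (0.55, adjusted p = 0.0410). The maintenance methyltransferase Dnmt1 was at 11.99 and 12.14 against 12.00 and 12.03 (0.05, adjusted p = 0.914). Uhrf1, its recruiter, was at 8.16 and 6.80 against 9.07 and 6.96 (-0.53, adjusted p = 0.758), and in both groups the array coded EA0831 was the higher. Tet1 differed by 0.99 (SE 0.63, adjusted p = 0.470).

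Of 32 imprinted genes 1 was higher and 2 lower (median -0.24). Grb10, a growth inhibitor, was at 8.43 and 8.65 against 10.98 and 10.24 (-2.07, SE 0.32, adjusted p = 0.00643). Nnat, at 4.55 and 4.14 against 10.66 and 8.03, was lower by -5.00 (adjusted p 0.00984 to 0.084), and Impact was higher by 0.73 (0.0891 to 0.112).

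The sex of the E9.5 samples is not labelled. Eif2s3y, a Y-linked translation factor, was at 8.40 and 8.97 in d6 male and 8.40 and 8.33 in E9.5 (0.32, SE 0.53, adjusted p = 0.836), against 3.25 and 3.22 in female day 6 PGCLCs. Kdm5d, a Y-linked demethylase, was at 7.00 and 5.96 in d6 male and 8.39 and 7.38 in E9.5 (-1.41, adjusted p = 0.292), against 2.23 and 2.46 in the female cells. Uba1y was higher in d6 male, at 7.35 and 7.89 against 6.40 and 6.01 (1.42, adjusted p 0.0316 to 0.0998), with 5.43 and 5.22 in the female cells. Zfy2 was at 5.06 and 4.56 against 4.42 and 4.69, below the 7.77 and 7.55 of the female cells, and Uty differed by 0.06 (adjusted p = 0.912). For Eif2s3y, Kdm5d and Uba1y, but not for Zfy2, both E9.5 arrays thus lay above the female cells. Zfy2 was bright in the female cells, so its probe set cannot serve as a measure of Y-linked RNA here. Xist, which silences an X chromosome in females, was at 5.34 and 4.81 against 5.69 and 5.96 (-0.74, SE 0.29, adjusted p = 0.191). It was at 5.58 and 5.59 in the female day 6 cells and at 5.94 and 5.67 in female PGCs of E12.5. The male and female levels lay close together, so the Xist values say little about the sex of the E9.5 samples. Of 446 X-linked genes tested, 26 (5.83%) were higher and 41 (9.19%) lower, against 4.9% and 3.78% of all genes (median -0.05).

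**Figure D5:**
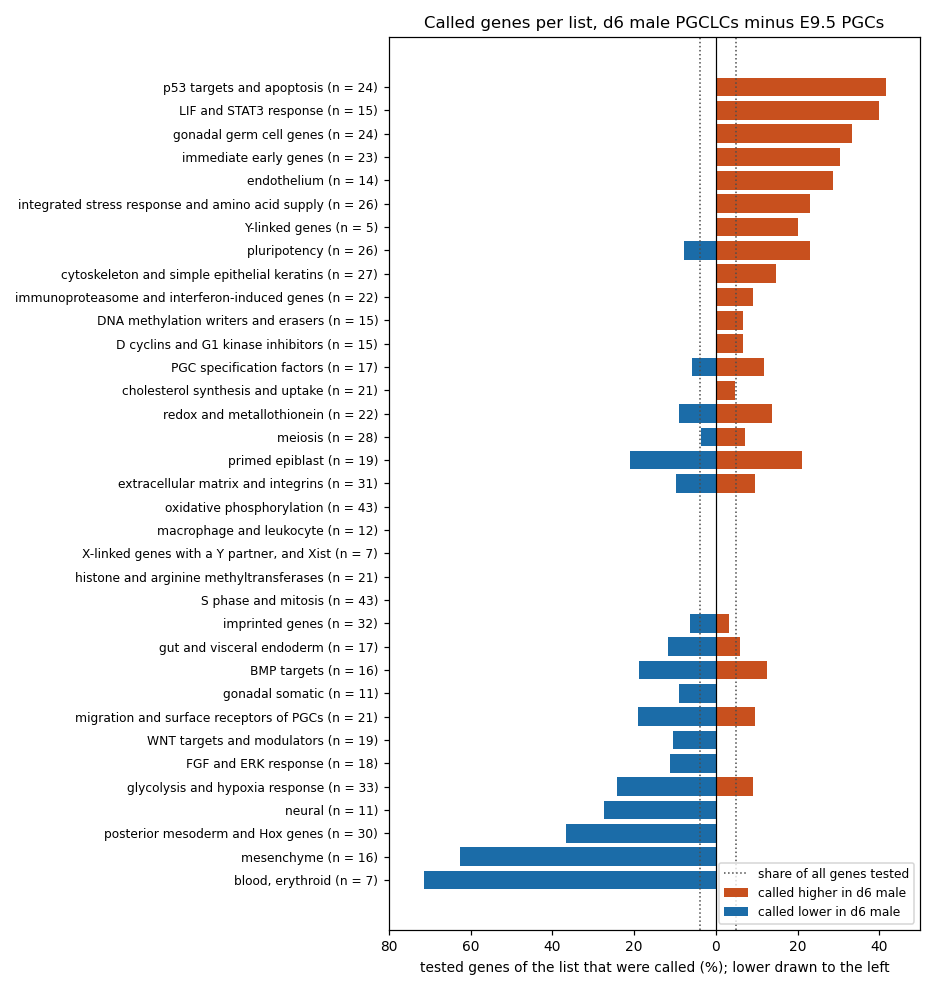
For each gene list, bars give the percentage of its tested genes called higher (orange, right) or lower (blue, left) in d6 male PGCLCs; dotted lines mark the shares over all genes tested, 4.9% and 3.78%. Erythroid, mesenchyme and posterior genes extend to the left, and p53, LIF and gonadal germ cell genes to the right.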

How the data were processed

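Whole-genome mouse arrays from Affymetrix were analysed. The authors deposited log2 values of 45101 probe sets on each array; the log base was read from the array maxima of 13.76 to 13.93, and how probes were summarised and normalized is not given in the sources used here. Per the labels' protocols, RNA was isolated with a column kit, and cDNA was amplified by PCR and labelled with biotin, which can raise the spread of dim genes.

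Array medians differed by more than 0.1, so values were quantile normalized with limma (version 3.58.1 in R 4.3.3). A probe set was tested where at least 2 of 12 arrays exceeded 4.81, and the 64 control probe sets were left out. The test was limma (lmFit, eBayes) on 6 group means over all 12 arrays, with 6 residual degrees of freedom, two-sided, with Benjamini-Hochberg adjustment over 25610 probe sets. A gene was represented by its tested probe set with the highest mean. Other tested probe sets of a gene could differ in call. Of 3 probe sets, 1 was called for Stat3 and for Grb10, and 3 for Socs3, Ccng1 and Hbb-y. Of 2 probe sets, 1 was called for Dazl, Fabp3 and Nkx1-2, and 2 for Dppa2 and Cxcl12. Of the probe sets, 34958 had 1 gene, 932 several and 9211 none in the platform annotation, and only those with 1 were named. On simulated data for this comparison (25610 probe sets, 200 changed), 18% of 2-fold and 61% of 4-fold changes were recovered, and 6% of calls were unchanged probe sets. The simulated noise was independent between arrays, without a shared code deviation, and fewer probe sets were changed than were called in the real data. These rates therefore need not hold for the real arrays.

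Same-numbered arrays share a code. Their deviations from the group means correlated between the groups (r = 0.57 over probe sets). With 2 pairs this is a hint from the data, and the block is an alternative. Alternatives besides the block were dropping the filter, raising it to the 75th percentile, deposited values, only the 4 arrays, a trend and robust eBayes, a 2-fold minimum, a floor at 4.81, 2 other ways to form genes, and each array left out.

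The comparison, gene lists and tests were chosen with earlier results of these data known. Named genes include the 12 largest called differences in each direction whose groups do not overlap. The others are the first 4 members of each of 28 lists and 8 marker lists by adjusted p, and a set of germ cell genes. Further called members are named to account for a count. Outside this rule, Uty is given as a further tested member of the Y-linked list, and Il6st, Cdh5 and Pecam1 were chosen after their values were seen.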

Additional observations from a re-analysis of the deposited data

How the results depend on the processing

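The main counts were 1801 probe sets and 1168 genes. They fell to 924 and 583 with no filter, to 57 and 34 with only the 4 arrays, and to 154 and 103 with the 4 arrays and the replicate block. Leaving out 1 array gave 929 to 1445 probe sets and 616 to 890 genes, with 647 and 616 genes without the d6 male arrays coded EA0831 and EA0842 and 758 and 890 without those of E9.5. The share of called genes that were higher was 64.6% without the E9.5 array coded EA0831 and 46.2% without the one coded EA0842, against 56.4% in all. With the replicate block over 12 arrays, 2641 probe sets and 1676 genes were called. The paired fit therefore called more, not fewer. The other settings gave 1362 to 2000 probe sets and 885 to 1428 genes. The 1822 probe sets that differed between codes became 0 with no filter (7420 at an unadjusted p under 0.05) and 0 with only the 4 arrays (6304), both by limma. Of the genes named by rule, 94 were no longer called with only the 4 arrays and 20 with no filter. The other 76 and 150 kept their status, and these include genes that were not called in the main fit either. Most calls of named genes thus rest on the spread taken over all 12 arrays. The genes that changed sign when 1 array was left out had not been called. Their differences ranged from -0.99 to 0.14 for Ndufb3, -0.71 to 0.09 for Kdm5c (0.07 in another such fit), -0.45 to 0.20 for Eif2s3x (0.07 in another), -4.78 to 0.33 for Ctss, -0.20 to 0.23 for Prdm1 (-0.03 in another), -0.10 to 0.24 for Pou5f1, -0.02 to 0.12 for Dnmt1 and -1.59 to 0.53 for Uhrf1 (0.15 in another). The causes were not tested. Dim signal limits the sizes: 259 called genes had a group mean below 4.81, and 171 of these still differed 2-fold with the floor.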

Other observations

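Endothelial genes were the one marker list of another cell type that was higher in d6 male PGCLCs with none lower, at 4 of 14 tested (median 1.11). Tek, an angiopoietin receptor, was at 7.98 and 8.55 against 5.83 and 5.92 (2.39, SE 0.34, limma adjusted p = 0.00514) and kept its call without each array. Esam (2.15; adjusted p up to 0.0566), Kdr (1.34; up to 0.0618) and Tie1 (2.56; up to 0.0773) lost theirs without 1 or more arrays. Cdh5, the endothelial cadherin, was at 9.15 and 7.57 against 5.51 and 5.99 and did not pass (2.61, adjusted p = 0.0783). Pecam1, which PGCs also express, differed by 0.65 (adjusted p = 0.830). Macrophage markers were not called (0 of 12 by limma, 1 at an unadjusted p under 0.05, and 1 called with the code block). Ctss, a lysosomal protease, was at 6.75 on the E9.5 array coded EA0831 and 1.65 on the other.

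Cytoskeleton and simple epithelial genes were higher in 4 of 27 and lower in none (median 0.39), with Cldn4, a tight junction claudin, at 8.56 and 8.02 against 5.80 and 4.49 (3.15, SE 0.40, adjusted p = 0.00313), Anxa1 (2.50, SE 0.35) and Tagln2 (1.5, SE 0.23). Extracellular matrix genes were divided, 3 higher and 3 lower of 31, but 7 and 0 without the E9.5 array coded EA0831 2 and 5 without the one coded EA0842, and 1 and 0 or 1 and 1 without the d6 male array coded EA0831 or EA0842. Lama4, a laminin chain, was at 8.17 and 8.31 against 5.11 and 4.09 (3.64, SE 0.55, adjusted p = 0.00625), whereas Fbn2, a fibrillin, was lower by -2.98 (adjusted p 0.0215 to 0.125). Rsad2, the interferon-induced viperin, was at 8.21 and 8.22 against 5.92 and 5.86 (2.32, SE 0.18, adjusted p = 0.000400), 1 of 2 called of 22 immunoproteasome and interferon genes. Ifi35 was the other (2.49; adjusted p 0.0137 to 0.165). Among 22 redox genes 3 were higher and 2 lower, and the glutathione transferases Gstm2 (0.99, SE 0.15) and Gstm5 (-1.44; adjusted p 0.00921 to 0.0564) differed in opposite directions.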
